A study of Mus musculus with 20 samples.

Results

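Interferon-stimulated genes are genes that a cell switches on when interferon binds its receptors, and 43 of them, chosen by symbol, were followed in donor CD8+ effector T cells recovered from blood, liver, lung and small intestine. Each gene was read through the brightest of its array probes, and 41 of the 43 had a probe, among 20886 genes with one. Mx1 and Mx2, which encode antiviral GTPases, had no probe that could be matched to them. The software that reads the scans marks spots clearly brighter than their surroundings as well above background, and the test took in genes with that mark on 4 or 5 arrays of any site. This left 29 of the 43 genes tested and 12 with a probe but not tested, while 8057 genes, 38.6% of those with a probe, passed the same filter. Levels are given as log2 signal above or below the array's 75th percentile, differences are given on that log2 scale with the standard error (SE) of limma, and p-values were adjusted over all 8057 genes.

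The cells came from a mouse model of lethal acute graft-versus-host disease, the attack of donor T cells on a transplant recipient. Recipients were female C57Bl/6 m-act OVA mice of 8 to 16 weeks, which carry an ovalbumin transgene under the broadly active CAG promoter. They were irradiated with 11 Gy, split into 2 doses of 5.5 Gy given 3 hours apart, and received 3000000 bone marrow cells and 15000000 splenocytes from OT-I mice, whose transgenic T cell receptor recognises an ovalbumin peptide. The grafted OT-I CD8+ cells carried CD45.1, the other graft cells and the recipients carried CD45.2, and CD45.1+ cells were selected magnetically on day 4. Blood, liver, lung and small intestine had 5 arrays each, and all 4 groups share the transgene, the irradiation and the graft, so blood is the comparator here and no untreated or resting T cell is among the samples. The comparisons address how these effector cells differ between the organs attacked and the blood. Since the labels do not link arrays to animals, the p-values refer to the spread among these arrays, part of which may be technical.

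Type I interferons signal through a complex that contains IRF9 and binds the interferon-stimulated response element (ISRE) in promoters of genes such as Isg15 and the Ifit family. Interferon-γ, which activated CD8+ T cells themselves make in quantity, acts at the gamma-activated site (GAS) and raises Irf1, guanylate-binding proteins and the immunoproteasome. The products recognise viral nucleic acid, block replication, or improve the presentation of peptides on MHC class I.

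The share of probes well above background ran from 22.6% to 38.7% over the arrays, and the 75th percentile signal from 823 to 2848. Of 15 T cell identity genes with a probe, 14 or 15 were well above background on every array, with Cd247 the missing one. Their mean level over 14 tested genes was 4.89 to 5.40 on the blood arrays and 5.27 to 5.5 on the liver arrays. On lung arrays it was 4.58 to 5.26, and small intestine arrays spanned 3.63 to 5.69. Monocyte and macrophage markers, with 5 of 14 genes tested, averaged -1.56 to -0.50 on blood arrays and -1.32 to -0.09 on liver arrays. They averaged -0.46 to 4.18 on lung arrays, while small intestine arrays spanned -1.73 to 4.10. The 5 tested were Lyz1, Cd14, Mpeg1, Cybb and Itgam. Itgam read 3.44 to 4.89 on blood arrays, so the mean of the 5 need not reflect these cells alone. Of these 14 markers 12 were well above background on no blood array, Csf1r, Lyz2 and Adgre1 among them, against 5 on no lung array and 2 on no small intestine array. In total RNA of a selected fraction, fewer cells of a type and less RNA per cell cannot be told apart. The arrays labelled liver 5 and small intestine 5 went against their labels in markers of Paneth cells, secretory cells of the intestinal crypt. The array labelled liver 5 averaged 5.01 where liver 1 to 4 lay between -2.16 and -1.80, and the array labelled small intestine 5 averaged -2.86 where small intestine 1 to 4 lay between 3.08 and 7.39. Counts of genes called, and the tested differences of single genes printed with their error where liver or small intestine enters, are therefore also given without these 2 arrays. The 4 arrays of 1 replicate number shared a slide, so that slides 1 to 5 each carried all sites.

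Promoter sequences show the elements through which these genes are known to respond. Of the 43 genes 31 had a promoter entry in RefSeq (mouse build GRCm38.p6, from 250 bases before to 50 bases after the transcription start). The ISRE core GAAANNGAAA, searched on both strands, occurred in 14 of the 31 (45.2%), against 1079 of 27025 genes (3.99%). The GAS core TTCNNNGAA, which reads alike on both strands, occurred in 11 of the 31 (35.5%), against 2582 genes (9.55%). A match is a description of letters, not evidence of binding. The stretches below lie before the start of genes whose levels the results turn on, of 1 gene below that mark on every array (Ifit1) and of Irf1. Capitals mark the matches, to the ISRE core in the first 5 sequences and to the GAS core in the last 2.
Isg15, chr4:156200850-156200909, minus strand: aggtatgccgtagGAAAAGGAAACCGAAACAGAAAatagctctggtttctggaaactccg
Ifit1, chr19:34640779-34640838, plus strand: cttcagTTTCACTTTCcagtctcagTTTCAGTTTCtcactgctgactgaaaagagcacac
Oas1a, chr5:120907526-120907564, minus strand: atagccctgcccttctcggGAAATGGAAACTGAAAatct
Gbp2, chr3:142620579-142620638, plus strand: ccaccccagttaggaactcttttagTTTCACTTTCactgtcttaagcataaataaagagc
Irgm1, chr11:48871421-48871469, minus strand: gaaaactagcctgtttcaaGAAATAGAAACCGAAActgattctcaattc
Irf1, chr11:53769899-53769957, plus strand: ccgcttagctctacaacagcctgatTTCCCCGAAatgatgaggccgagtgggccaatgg
Samhd1, chr2:157135298-157135346, minus strand: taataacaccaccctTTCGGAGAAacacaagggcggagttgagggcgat

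Isg15 held 3 overlapping ISRE cores in 1 run that ended 56 bases before the start, and Ifit1 held 2 separate ones. Gbp2 and Ifit1 carry the element in the opposite orientation to Isg15, Oas1a and Irgm1. Samhd1 had no ISRE core in its window, and its GAS core ended 226 bases before the start. Dhx58, Parp9, Parp14, Gbp4 and Iigp1 were among the 12 genes without an entry. Among the 21 tested genes with an entry, the 9 with an ISRE core had a median difference of 0.23 between small intestine and blood, and 6 of the 9 were higher, whereas the 12 without it had a median of -0.26 with 4 of 12 higher. For lung against blood the medians were 0.09 and -0.29, with 7 of 9 and 4 of 12 higher. In small intestine the GAS core divided the genes much the same way. The 9 with it had a median of 0.18, with 6 of 9 higher, and the 12 without it -0.17, with 4 of 12 higher. In lung the medians by GAS core were 0.09 and -0.11, with 5 of 9 and 6 of 12 higher. No difference between genes with and without a core was tested.

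For 28 of the 29 tested genes no difference between sites passed the threshold. In the small intestine Samhd1, a phosphohydrolase that depletes the nucleotides viruses need, was lower than in blood, and Isg15, a ubiquitin-like modifier, was higher by a similar amount without passing the threshold. The guanylate-binding protein gene Gbp2 averaged highest in lung, and that difference did not pass. Against blood, 0 of the 29 were called in liver and 0 in lung, and 1 of the 29, Samhd1, in small intestine. Over all tested genes the called shares were 0% (liver), 0.819% (lung) and 10.9% (small intestine, 9.94% lower). In the 3 comparisons between organs 0 of the 29 were called, beside 0.285% of all genes (lung and liver), 0% (small intestine and liver) and 0.149% (small intestine and lung, 0.137% lower and 0.0124% higher), and the F-test over the 4 sites called 0 of the 29 (0.757% of all genes). The smallest adjusted p among the members was 0.997 in the liver and blood comparison and 0.129 in that of lung and blood. Between organs it was 0.250 (lung and liver), 0.148 (small intestine and liver) and 0.275 (small intestine and lung), and in the F-test it was 0.115. At an unadjusted p under 0.05 the 29 genes gave counts against blood of 1 (liver), 4 (lung) and 8 (small intestine), beside 2.81%, 33.8% and 32.8% of all genes. Between organs they gave 5 (lung and liver, 14.9% of all genes), 6 (small intestine and liver, 22.1%) and 3 (small intestine and lung, 8.25%), and the F-test gave 5 (27.8%).

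**Figure D1:**
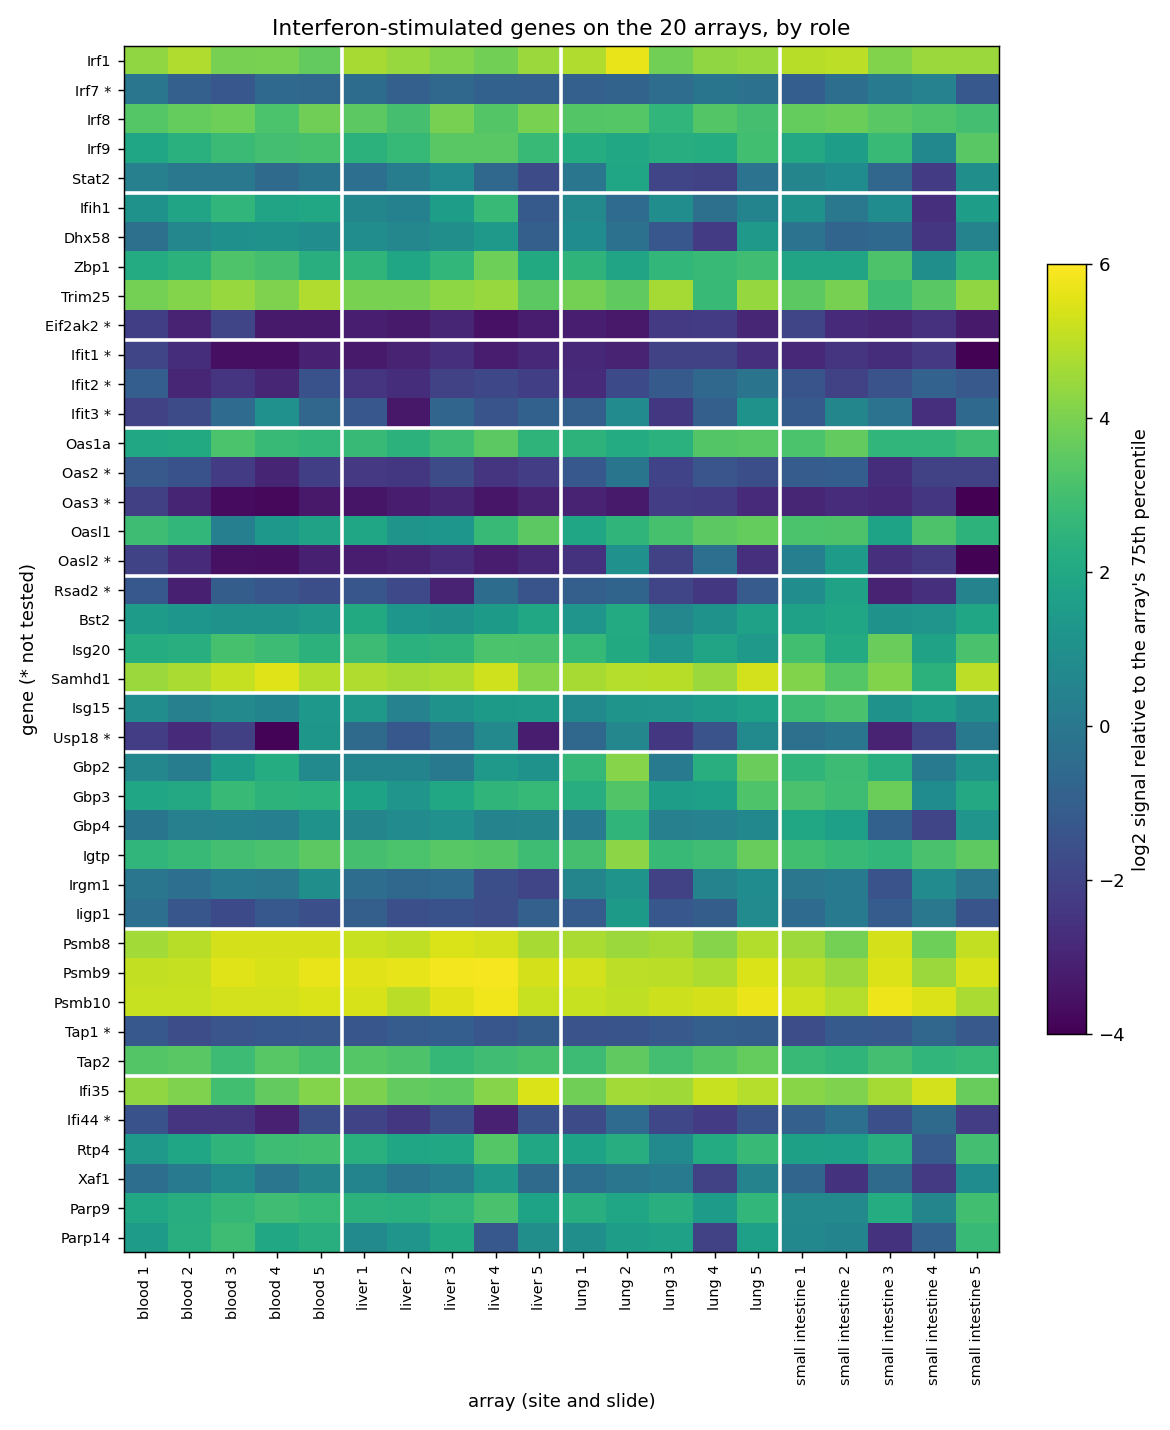
Log2 signal of the 41 genes with a probe (rows, grouped by role, an asterisk marks the 12 not tested) on the 20 arrays (columns, by site and slide), relative to each array's 75th percentile, with yellow high and dark blue low. Colours compare arrays within a row, since different probes differ in brightness. Small intestine 4 was the lowest array for 11 of the 29 tested genes and lung 2 the highest for 8.

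Set against blood, the 29 genes had median differences of -0.00 (liver), -0.08 (lung) and -0.14 (small intestine), beside medians of 0.05, -0.30 and -0.36 over all genes. Relative to all genes, 17 of the 29 lay above the median in lung and 16 in small intestine. With arrays scaled to the median of those probes that were well above background on all 20, the median of all genes was -0.20 in lung and -0.08 in small intestine, and the median of the 29 became 0.02 and 0.13. That scaling shifts every gene of a comparison by the same amount, so the sign of the median follows the scaling and the place of the 29 relative to all genes does not change. The arrays of 1 site differed more among themselves in lung and small intestine. The median SD of the 29 genes was 0.44 among blood arrays and 0.46 among liver arrays, but 0.63 among lung and 0.82 among small intestine arrays, beside 0.40, 0.43, 0.50 and 0.62 for all genes. Of the 29 genes 11 had their lowest value of all 20 arrays on small intestine 4, among them Irf9, Ifih1, Samhd1 and Parp9, and 8 had their highest on lung 2, among them Irf1, Gbp2, Igtp and Irgm1. Small intestine 4 also had the lowest mean of the T cell identity genes, at 3.63, and the highest of the Paneth markers, at 7.39. The part of these cells in the levels was not tested.

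Among the transcription factors of the interferon response, 4 of 5 were tested and 0 were called in any of the 6 comparisons. Irf1, a factor that interferon-γ raises quickly, was bright on all 20 arrays. Irf1 read 4.36, 4.80, 3.94, 3.98 and 3.59 on blood 1 to 5 and 4.71, 4.45, 4.15, 3.87 and 4.52 on liver 1 to 5. It read 4.82, 5.67, 3.88, 4.35 and 4.45 on lung 1 to 5 and 4.92, 4.99, 4.12, 4.51 and 4.51 on small intestine 1 to 5. The highest array was lung 2, and the 4 sites overlapped. Lung minus blood was 0.50 ± 0.31 (SE, adjusted p = 0.225), with a 95% interval of -0.14 to 1.14.

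Irf8 is a factor of myeloid cells that activated CD8+ T cells also express. Irf8 read 3.37, 3.63, 3.80, 3.17 and 3.82 on blood 1 to 5 and 3.49, 3.04, 3.96, 3.31 and 3.99 on liver 1 to 5. It read 3.33, 3.35, 2.57, 3.33 and 3.06 on lung 1 to 5 and 3.63, 3.76, 3.42, 3.26 and 3.01 on small intestine 1 to 5. Lung 3 was the lowest array, and lung minus blood was -0.43 ± 0.24 (SE, adjusted p = 0.193).

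Irf9, the DNA-binding member of the type I interferon complex, spread most in the small intestine. Irf9 read 1.94, 2.33, 2.82, 3.01 and 3.10 on blood 1 to 5 and 2.44, 2.70, 3.42, 3.44 and 2.73 on liver 1 to 5. It read 2.20, 1.97, 2.24, 2.18 and 2.97 on lung 1 to 5 and 2.04, 1.57, 2.74, 0.68 and 3.46 on small intestine 1 to 5. The array labelled small intestine 5 was the highest of all 20 and small intestine 4 the lowest. Small intestine minus liver was -0.85 ± 0.40 (SE, adjusted p = 0.223), and -1.24 ± 0.39 (adjusted p = 0.0394) without the 2 arrays that went against their labels. Stat2, its partner, was well above background on 14 arrays, with differences between -0.41 and 0.35 over the 6 comparisons. Irf7, the factor that amplifies type I interferon, was not tested. It was well above background on 3 blood, 2 liver, 2 lung and 3 small intestine arrays, and its values ran from -1.30 to 0.44.

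Of the 5 sensors of viral nucleic acid 4 were tested and 0 were called. Their median difference from blood was -0.68 in lung and -1.01 in small intestine. All 4 averaged below blood in both sites, also under each of 4 other scalings in small intestine, whereas in lung Zbp1 turned to 0.06 after quantile normalization and in the authors' processed values, and in both sites its second probe read above blood. Ifih1 encodes MDA5, a sensor of long double-stranded RNA. Ifih1 read 1.13, 1.85, 2.58, 1.83 and 1.99 on blood 1 to 5 and 0.58, 0.41, 1.62, 2.77 and -1.17 on liver 1 to 5. It read 0.69, -0.51, 0.90, -0.30 and 0.52 on lung 1 to 5 and 1.11, 0.00, 0.86, -2.65 and 1.60 on small intestine 1 to 5. Every lung array lay below every blood array, which held for 5.99% of all genes in that direction. Lung minus blood was -1.62 ± 0.69 (SE, adjusted p = 0.129). Small intestine minus blood was -1.69 ± 0.69 (SE, adjusted p = 0.10), lower on 5 of 5 slides, and -2.05 ± 0.63 (adjusted p = 0.0261) without the 2 arrays. By slide it ran from -0.02 on slide 1 to -4.48 on slide 4. Ifih1 was well above background on 5 blood, 4 liver, 4 lung and 4 small intestine arrays, and on 3 of 4 small intestine arrays without the 2, so its lowest values lie in the background.

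Dhx58 encodes LGP2, a helicase that works with MDA5. Dhx58 read -0.29, 0.61, 1.01, 1.10 and 0.91 on blood 1 to 5 and 0.89, 0.64, 0.94, 1.38 and -0.98 on liver 1 to 5. It read 0.88, -0.25, -1.27, -2.21 and 1.41 on lung 1 to 5 and -0.18, -0.74, -0.59, -2.41 and 0.48 on small intestine 1 to 5. Its probe was well above background on 4 blood, 4 liver, 3 lung and 2 small intestine arrays, so the low end of these values lies in the background. Dhx58 entered the test through blood and liver, where it averaged higher, so its differences from these sites are a description. The small intestine and blood means differed by -1.35 ± 0.62 (SE, adjusted p = 0.136), and by -1.65 ± 0.60 (adjusted p = 0.0493) without the 2 arrays, where 1 of 4 small intestine arrays was well above background.

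Trim25, a ubiquitin ligase that activates the sensor RIG-I, was bright on all 20 arrays. Trim25 read 3.92, 4.14, 4.45, 4.08 and 4.80 on blood 1 to 5 and 3.99, 4.01, 4.31, 4.46 and 3.50 on liver 1 to 5. It read 3.92, 3.55, 4.66, 2.79 and 4.42 on lung 1 to 5 and 3.48, 3.96, 2.89, 3.45 and 4.33 on small intestine 1 to 5. Its level in small intestine differed from blood by -0.66 ± 0.33 (SE, adjusted p = 0.171), lower on 5 of 5 slides, and by -0.83 ± 0.33 (adjusted p = 0.0653) without the 2 arrays. Zbp1, a sensor of nucleic acid in the Z form, differed by -0.12 in lung and -0.55 in small intestine from blood. Its probes disagreed, since the second one, well above background on 20 arrays, gave 0.52 and 0.35. Eif2ak2, which encodes the kinase PKR, was well above background on 0 of 20 arrays.

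The IFIT proteins, which bind viral RNA, could not be tested. Ifit1, whose promoter holds 2 ISRE cores, was well above background on 0 of 20 arrays. Ifit2 was well above background on 1 lung and 1 small intestine array. Ifit3 was on 3 blood, 1 liver, 2 lung and 3 small intestine arrays, with its highest values on lung 5, at 1.10, and blood 4, at 1.05. A probe for Ifit3 could also bind its near-identical copy Ifit3b.

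Of the OAS family, enzymes that make oligoadenylates to activate RNase L, 2 of 5 genes were tested and 0 were called. Oas1a was bright everywhere. Oas1a read 1.99, 2.08, 3.15, 2.79 and 2.63 on blood 1 to 5 and 2.79, 2.41, 2.88, 3.48 and 2.51 on liver 1 to 5. It read 2.47, 2.15, 2.37, 3.34 and 3.38 on lung 1 to 5 and 3.18, 3.58, 2.58, 2.57 and 2.89 on small intestine 1 to 5. Small intestine 2 was the highest array, and small intestine minus blood was 0.43 ± 0.31 (SE, adjusted p = 0.289), and 0.45 ± 0.34 (adjusted p = 0.279) without the 2 arrays. A second Oas1a probe, well above background on 20 arrays, gave 0.44 for that difference. The closely related Oas1g could share the signal.

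Oasl1, an OAS-like protein without that enzyme activity, read higher in lung and small intestine than in blood on average. Oasl1 read 2.91, 2.64, 0.32, 1.34 and 1.76 on blood 1 to 5 and 1.93, 1.17, 1.25, 2.74 and 3.46 on liver 1 to 5. It read 1.91, 2.53, 3.09, 3.46 and 3.63 on lung 1 to 5 and 3.16, 3.19, 1.81, 3.22 and 2.46 on small intestine 1 to 5. Blood 3 was the lowest array, and the values of every pair of sites overlapped. Lung minus blood was 1.13 ± 0.51 (SE, adjusted p = 0.136), higher on 3 of 5 slides, and small intestine minus blood was 0.97 ± 0.51 (SE, adjusted p = 0.183), higher on 5 of 5. The latter was 1.05 ± 0.51 (adjusted p = 0.111) without the 2 arrays. Oas3 was well above background on 0 arrays, and Oas2 was on 1 lung array. Oasl2 was well above background on 3 arrays, at 0.33 on small intestine 1, 1.50 on small intestine 2 and 1.06 on lung 2, whereas blood and liver arrays read -1.96 or less.

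Of the other antiviral effectors 3 of 6 were tested and 1 was called. Samhd1 was lower in small intestine than in blood, the only call among the 29 genes over the 6 comparisons. Samhd1 read 4.49, 4.72, 5.13, 5.53 and 4.83 on blood 1 to 5 and 4.83, 4.66, 4.78, 5.27 and 4.16 on liver 1 to 5. It read 4.70, 4.88, 4.94, 4.48 and 5.33 on lung 1 to 5 and 4.10, 3.37, 4.09, 2.44 and 4.98 on small intestine 1 to 5. Small intestine 1 to 4 lay below every blood array, and the array labelled small intestine 5 lay inside the blood range. Small intestine minus blood was -1.14 ± 0.36 (SE, adjusted p = 0.0451), with a 95% interval of -1.89 to -0.40, and lower on 4 of 5 slides. By slide the difference was -0.39, -1.35, -1.04, -3.09 and 0.15 on slides 1 to 5. With the slide as a block the adjusted p was 0.0525, where 14.4% of all genes were called, and without the 2 arrays the difference was -1.44 ± 0.32 (adjusted p = 0.00519). The second Samhd1 probe, well above background on 20 arrays, gave -0.45 for this difference and -0.06 for small intestine minus lung, where the brighter probe gave -1.07 ± 0.36 (SE, adjusted p = 0.275), and -1.36 ± 0.32 (adjusted p = 0.0273) without the 2 arrays. Under other scalings it was -0.87 with probes bright on all arrays as reference (adjusted p = 0.0886), -0.99 after quantile normalization (adjusted p = 0.0678) and -1.22 with normexp (adjusted p = 0.0611), so the call was lost there. Leaving out 1 array at a time, the call held without blood 1, liver 4, liver 5, lung 4, small intestine 3 or small intestine 5 and was lost without any of the other 14, with adjusted p between 0.00705 and 0.127. Lung and liver differed from blood by -0.08 and -0.20. The T cell identity genes averaged 4.54, 3.86, 5.69, 3.63 and 5.46 on small intestine 1 to 5, where Samhd1 read 4.10, 3.37, 4.09, 2.44 and 4.98. The part of the T cell share in the difference was not tested.

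Isg20, an exonuclease that degrades viral RNA, read lowest in lung. Isg20 read 2.18, 2.25, 3.09, 2.86 and 2.43 on blood 1 to 5 and 2.84, 2.40, 2.50, 3.16 and 3.14 on liver 1 to 5. It read 2.68, 2.09, 1.20, 1.83 and 1.38 on lung 1 to 5 and 2.97, 2.12, 3.73, 1.76 and 3.13 on small intestine 1 to 5. Lung minus liver was -0.97 ± 0.35 (SE, adjusted p = 0.269), lower on 5 of 5 slides, and small intestine minus lung was 0.90 ± 0.35 (SE, adjusted p = 0.406). These became -0.89 ± 0.38 (adjusted p = 0.152) and 0.81 ± 0.38 (adjusted p = 0.375) without the 2 arrays. The second probe gave -1.07 and 1.04 for these differences. Bst2, which encodes the tether that holds budding virus at the cell surface, differed by 0.09 in lung and 0.29 in small intestine from blood. Rsad2, which encodes viperin, was not tested. It was well above background on 2 blood, 1 liver, 1 lung and 3 small intestine arrays, and read 0.91, 1.78 and 0.48 on small intestine 1, 2 and 5, above every blood, liver and lung array.

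**Figure D2:**
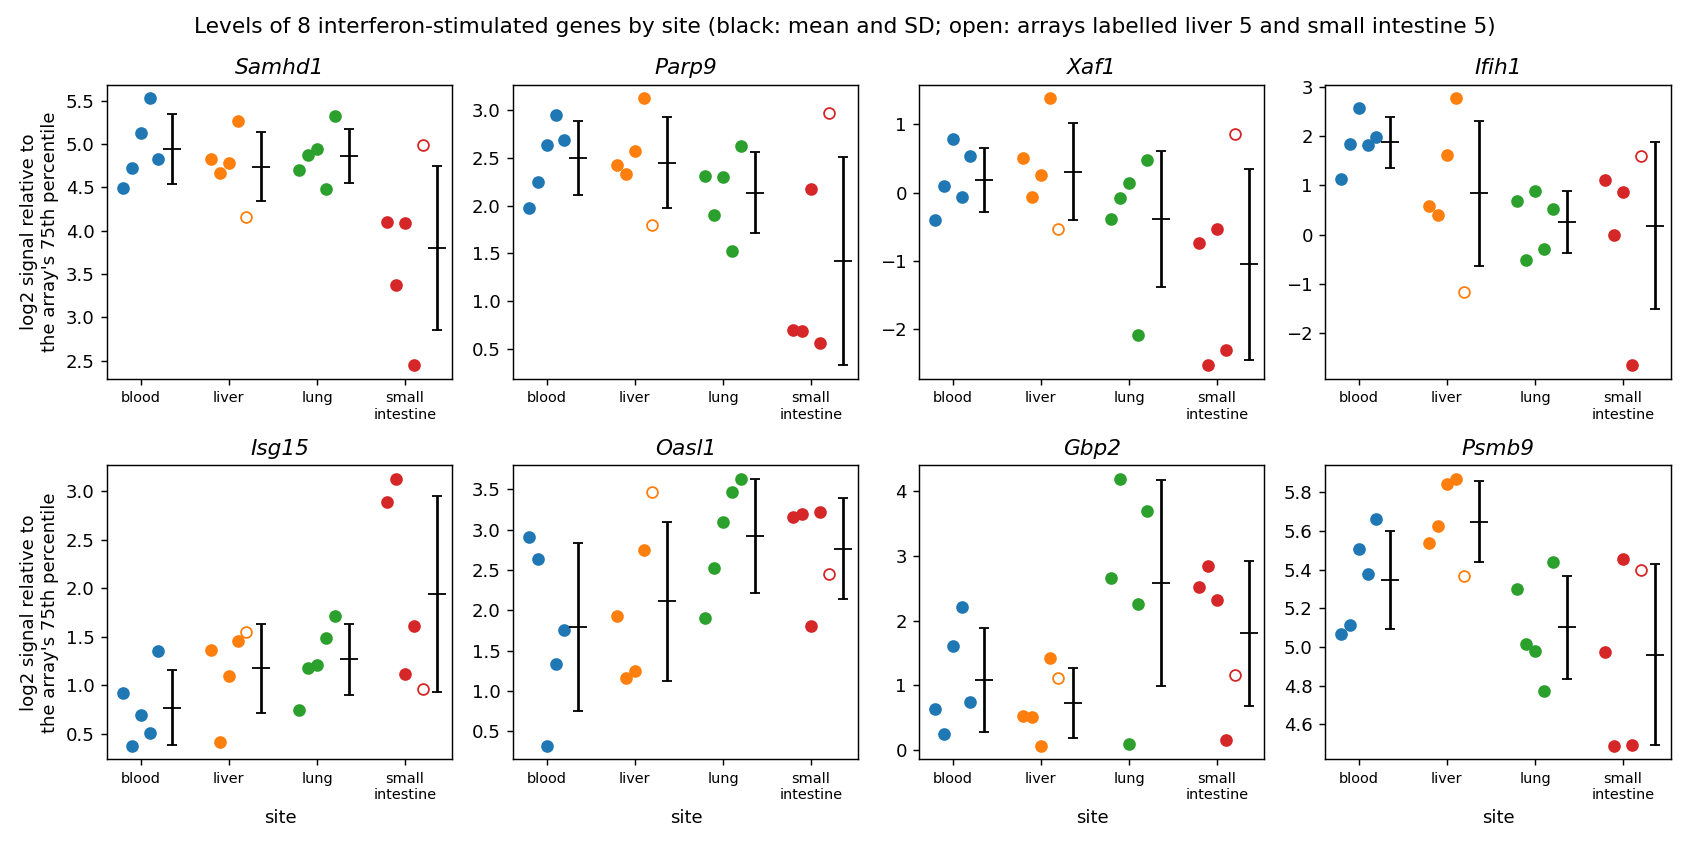
Log2 signal relative to each array's 75th percentile for 8 genes, with 1 point per array, the mean and SD in black, and open points for the arrays labelled liver 5 and small intestine 5. In small intestine Samhd1 averaged 3.80 ± 0.95 and Isg15 1.94 ± 1.00 (SD, n = 5), against 4.94 ± 0.40 and 0.77 ± 0.38 in blood, and the open point of Samhd1, Parp9 and Xaf1 is the highest of the 5 small intestine arrays.

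The ISG15 system is the modifier Isg15 and Usp18, the protease that removes it. Isg15 averaged higher in small intestine than in blood. Isg15 read 0.92, 0.37, 0.70, 0.51 and 1.35 on blood 1 to 5 and 1.37, 0.42, 1.10, 1.45 and 1.55 on liver 1 to 5. It read 0.74, 1.18, 1.21, 1.49 and 1.71 on lung 1 to 5 and 2.88, 3.12, 1.11, 1.61 and 0.96 on small intestine 1 to 5. Small intestine 1 and 2 were the highest of all 20 arrays, and small intestine 3, 4 and 5 lay within the range of the other sites. Small intestine minus blood was 1.17 ± 0.38 (SE, adjusted p = 0.0506), which did not pass, with a 95% interval of 0.38 to 1.95. By slide it was 1.96, 2.75, 0.42, 1.10 and -0.39 on slides 1 to 5. Without the 2 arrays it was 1.41 ± 0.37 (adjusted p = 0.0131), and after quantile normalization 1.46 (adjusted p = 0.0472). It also passed without any 1 of liver 5, lung 4, small intestine 3 and small intestine 5, with adjusted p between 0.0137 and 0.157 over the 20 arrays left out in turn. The second Isg15 probe was well above background on 0 arrays. Monocyte and macrophage markers averaged 3.65 and 4.10 on small intestine 1 and 2 and -0.35, 0.96 and -1.73 on small intestine 3, 4 and 5. On small intestine 4 that mean rested on Lyz1, at 6.62, and Itgam, at 2.56, while Cd14, Mpeg1 and Cybb read 0.72, -2.48 and -2.63. Csf1r, which encodes a receptor of monocytes and macrophages, read 5.28 and 5.77 on small intestine 1 and 2 and lay between -4.19 and -2.53 on the other 3. On lung 4 and lung 5 the same markers averaged 4.18 and 3.72, and Isg15 read 1.49 and 1.71. Their part in the Isg15 level was not tested. Usp18 was well above background on 1 blood, 3 liver, 3 lung and 3 small intestine arrays and was not tested.

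**Figure D3:**
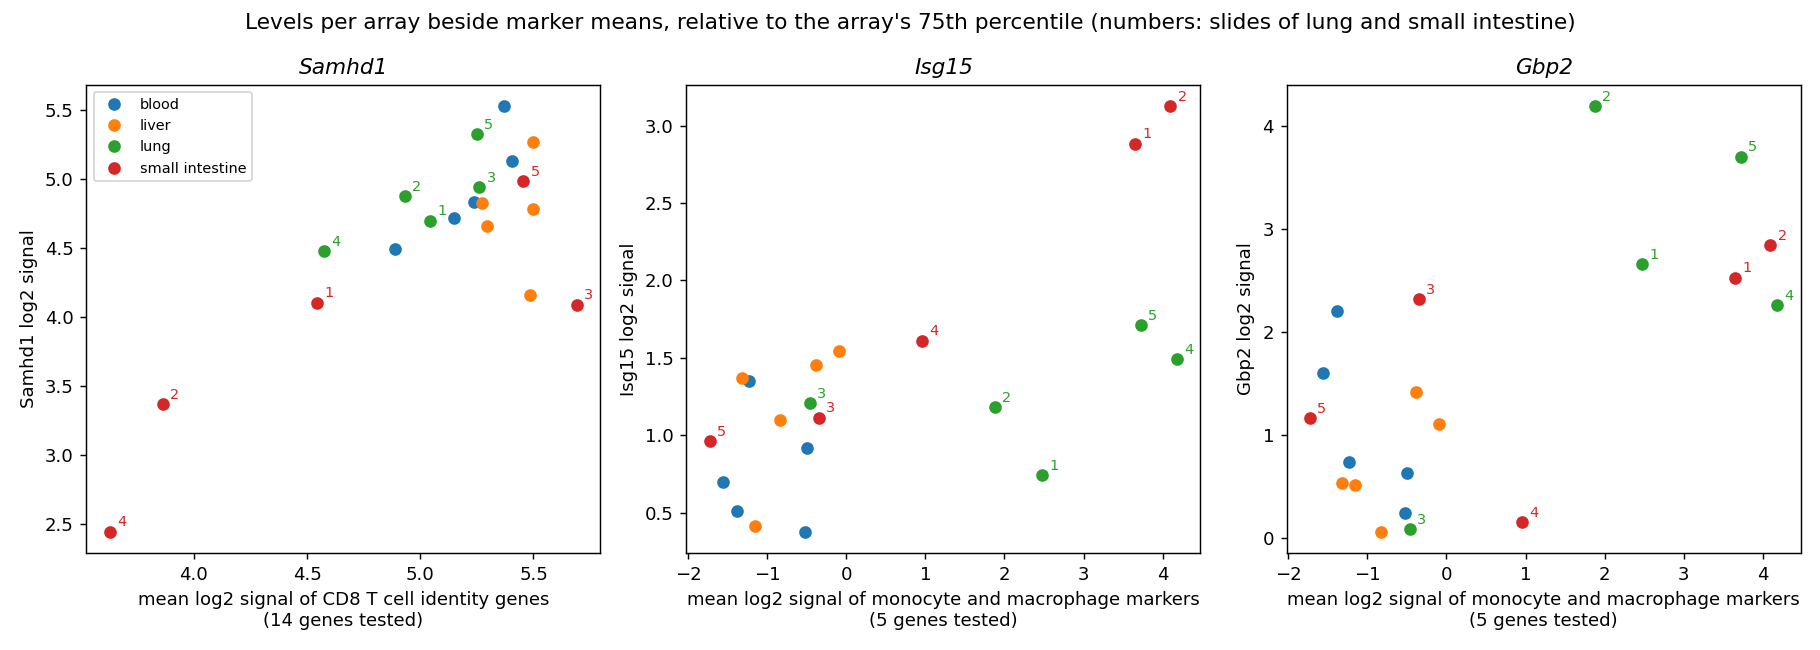
Samhd1 beside the mean of 14 T cell identity genes, and Isg15 and Gbp2 beside the mean of 5 monocyte and macrophage markers, all as log2 signal relative to the 75th percentile, with 1 point per array and slide numbers on lung and small intestine. Small intestine 4 has the lowest Samhd1 level, 2.44, and the lowest identity mean, 3.63, and small intestine 1 and 2 join high marker means with the highest Isg15 levels, 2.88 and 3.12. The points share the array and its scaling, and the marker mean of small intestine 4 rests mainly on Lyz1, at 6.62.

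All 6 interferon-inducible GTPases, proteins that attack the vacuoles of intracellular microbes, were tested, and 0 were called. In lung all 6 averaged above blood, with a median difference of 0.38, and with normexp background correction 5 of the 6 did, Gbp3 being at -0.07. Gbp2 was high on 4 lung arrays. Gbp2 read 0.63, 0.24, 1.60, 2.21 and 0.73 on blood 1 to 5 and 0.53, 0.51, 0.06, 1.41 and 1.10 on liver 1 to 5. It read 2.66, 4.19, 0.09, 2.26 and 3.70 on lung 1 to 5 and 2.52, 2.84, 2.32, 0.15 and 1.16 on small intestine 1 to 5. Lung 3 was low, at 0.09, and lung 3 was also the lung array without alveolar macrophage markers, whose mean was -2.17 there and 2.96 to 5.44 on the other 4. Lung minus liver was 1.86 ± 0.63 (SE, adjusted p = 0.250), higher on 5 of 5 slides, and lung minus blood was 1.50 ± 0.63 (SE, adjusted p = 0.129). Lung minus liver was 1.95 ± 0.69 (adjusted p = 0.150) without the 2 arrays, and without lung 3 it was 2.48 (adjusted p = 0.0292). The macrophages' part in the Gbp2 level was not tested.

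Igtp, which encodes a GTPase of the immunity-related family, was bright on all arrays. Igtp read 2.60, 2.78, 3.00, 3.11 and 3.48 on blood 1 to 5 and 3.07, 3.16, 3.40, 3.31 and 2.89 on liver 1 to 5. It read 3.06, 4.27, 2.73, 2.93 and 3.69 on lung 1 to 5 and 2.96, 2.76, 2.63, 3.14 and 3.52 on small intestine 1 to 5. Lung 2 was the highest array, and lung minus blood was 0.34 ± 0.28 (SE, adjusted p = 0.349).

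Iigp1, another such GTPase, was at the edge of measurement. Iigp1 read -0.33, -1.30, -1.77, -1.23 and -1.55 on blood 1 to 5 and -0.99, -1.56, -1.48, -1.63 and -0.92 on liver 1 to 5. It read -1.10, 1.44, -1.28, -1.05 and 0.81 on lung 1 to 5 and -0.49, 0.15, -1.10, 0.01 and -1.40 on small intestine 1 to 5. It was well above background on 1 blood, 0 liver, 2 lung and 4 small intestine arrays, so against liver only a bound can be given. It was the only 1 of the 29 genes that entered the test through a single site, small intestine, and that entry favours a higher level there, so its values are a description. It was at least 1.71-fold higher in lung and at least 1.36-fold higher in small intestine than in liver (adjusted p = 0.305 and 0.333), and at least 1.74-fold and 1.60-fold without the 2 arrays (adjusted p = 0.151 and 0.143). The bound sets the mean of the brighter site against the dimmest probe still marked well above background on each liver array, or the probe's own signal where that was higher. Here and below, an adjusted p beside a bound comes from the test of the measured signals, not from the bound.

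Irgm1, a regulator of these GTPases, is described although the rule for named genes did not pick it, since its liver and blood values did not overlap. Irgm1 read -0.07, -0.36, 0.16, 0.02 and 0.97 on blood 1 to 5 and -0.44, -0.66, -0.49, -1.60 and -1.89 on liver 1 to 5. It read 0.57, 1.19, -2.03, 0.46 and 0.88 on lung 1 to 5 and -0.05, 0.08, -1.44, 0.81 and -0.05 on small intestine 1 to 5. All 5 liver arrays lay below all 5 blood arrays, which held for 0.794% of all genes in that direction. Irgm1 and Ifih1 were the only 2 of the 29 with such a gap between 2 sites in the 6 comparisons, while in small intestine against blood this held for 7.82% of all genes on the lower side and 0.496% on the higher. The Irgm1 probe was well above background on 1 liver array and 4 blood arrays, and liver minus blood was -1.16 ± 0.51 (SE, adjusted p = 0.997), and -0.94 ± 0.55 (adjusted p = 1.000) without the 2 arrays. With normexp that difference was -0.40, and the second Irgm1 probe, well above background on 1 array, gave 0.23. Irgm1 entered the test through blood, lung and small intestine, where it averaged higher than in liver, so its differences from liver are a description. Gbp3 and Gbp4 differed from blood by at most 0.41 in any organ. Probes of the near-identical members of these families could share signal, and their sequences were not used here.

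The immunoproteasome and the peptide transporter feed peptides to MHC class I. Of their 5 genes 4 were tested and 0 were called, with medians against blood of 0.05 (liver), -0.11 (lung) and -0.44 (small intestine). With that other scaling, to probes bright on all 20 arrays, the small intestine median was -0.17 and Psmb10 turned to 0.23. Psmb9, a catalytic subunit, read highest in liver. Psmb9 read 5.07, 5.11, 5.51, 5.38 and 5.66 on blood 1 to 5 and 5.54, 5.62, 5.84, 5.87 and 5.37 on liver 1 to 5. It read 5.30, 5.02, 4.98, 4.77 and 5.44 on lung 1 to 5 and 4.97, 4.49, 5.45, 4.49 and 5.40 on small intestine 1 to 5. Small intestine minus liver was -0.69 ± 0.23 (SE, adjusted p = 0.148), and -0.87 ± 0.25 (adjusted p = 0.0272) without the 2 arrays. Lung minus liver was -0.55 ± 0.23 (SE, adjusted p = 0.298), and -0.62 ± 0.24 (adjusted p = 0.150) without them.

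Psmb10, the third subunit of this kind, read within a narrow range. Psmb10 read 5.15, 5.17, 5.31, 5.31 and 5.43 on blood 1 to 5 and 5.41, 4.97, 5.54, 5.77 and 5.16 on liver 1 to 5. It read 5.14, 5.04, 5.24, 5.34 and 5.71 on lung 1 to 5 and 5.30, 4.89, 5.73, 5.48 and 4.74 on small intestine 1 to 5. Small intestine minus liver was -0.14 ± 0.22 (SE, adjusted p = 0.708), with a 95% interval of -0.60 to 0.32, and its sign turned with the scaling. It was -0.07 ± 0.24 (adjusted p = 0.803) without the 2 arrays. Psmb8 differed from blood by -0.53 in lung and -0.59 in small intestine, and neither passed.

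Tap2, a chain of the transporter, read lowest in small intestine. Tap2 read 3.31, 3.42, 2.86, 3.41 and 3.10 on blood 1 to 5 and 3.36, 3.20, 2.66, 2.95 and 3.07 on liver 1 to 5. It read 2.86, 3.55, 3.01, 3.32 and 3.65 on lung 1 to 5 and 2.74, 2.55, 3.03, 2.57 and 2.71 on small intestine 1 to 5. Small intestine minus lung was -0.55 ± 0.21 (SE, adjusted p = 0.392), and small intestine minus blood was -0.50 ± 0.21 (SE, adjusted p = 0.111). They were -0.55 ± 0.23 (adjusted p = 0.285) and -0.50 ± 0.23 (adjusted p = 0.0981) without the 2 arrays. Tap1, the other chain, was well above background on 4 of 20 arrays and was not tested.

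Of the 6 remaining genes 5 were tested and 0 were called. Their median difference between small intestine and blood was -1.08, with 4 of 5 lower, and under the 4 other scalings it ran from -0.83 to -0.58. Parp9 belongs to the ADP-ribosyltransferase family and takes part in the repair of DNA. Parp9 read 1.98, 2.25, 2.64, 2.95 and 2.69 on blood 1 to 5 and 2.43, 2.34, 2.57, 3.13 and 1.80 on liver 1 to 5. It read 2.32, 1.91, 2.30, 1.53 and 2.63 on lung 1 to 5 and 0.70, 0.69, 2.18, 0.56 and 2.97 on small intestine 1 to 5. Small intestine 1, 2 and 4 lay below every other array, while small intestine 3 lay inside the blood range and the array labelled small intestine 5 above it. In small intestine the difference from blood was -1.08 ± 0.40 (SE, adjusted p = 0.0775), and -1.47 ± 0.33 (adjusted p = 0.00582) without the 2 arrays.

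Xaf1, which antagonises an inhibitor of apoptosis, read low on small intestine 2 and 4. Xaf1 read -0.40, 0.11, 0.78, -0.06 and 0.53 on blood 1 to 5 and 0.50, -0.06, 0.26, 1.38 and -0.54 on liver 1 to 5. It read -0.39, -0.08, 0.15, -2.08 and 0.47 on lung 1 to 5 and -0.73, -2.53, -0.53, -2.30 and 0.87 on small intestine 1 to 5. It was well above background on 4 blood, 4 liver, 3 lung and 1 small intestine array, so its low values lie in the background. Small intestine minus liver was -1.36 ± 0.56 (SE, adjusted p = 0.186). Without the 2 arrays it was well above background on 0 of 4 small intestine arrays, so only a bound can be given. It was at least 2.10-fold lower than in liver (adjusted p = 0.0176) and at least 1.67-fold lower than in blood (adjusted p = 0.0212). Xaf1 entered the test through blood and liver, where it averaged higher, so these values are a description.

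Ifi35, a leucine zipper protein, averaged highest in lung. Ifi35 read 4.34, 4.08, 2.98, 3.60 and 4.15 on blood 1 to 5 and 4.04, 3.61, 3.53, 4.19 and 5.45 on liver 1 to 5. It read 3.82, 4.62, 4.58, 5.18 and 4.88 on lung 1 to 5 and 4.23, 4.06, 4.66, 5.31 and 3.68 on small intestine 1 to 5. Blood 3 was the lowest array and the array labelled liver 5 the highest. Lung minus blood was 0.79 ± 0.38 (SE, adjusted p = 0.150). Parp14 had the most negative average difference of the 29 genes, -2.10 ± 0.82 (SE, adjusted p = 0.0895) in small intestine against blood. The SD among the small intestine arrays was 1.96, and the difference was -2.76 ± 0.79 (adjusted p = 0.0184) without the 2 arrays. Parp14 was well above background on 5 blood and 3 small intestine arrays, and on 2 of 4 small intestine arrays without the 2, so its lowest values lie in the background. Parp14 entered the test through blood, liver and lung, where it averaged higher, so its differences between small intestine and these sites are a description. With normexp its difference was -1.16, where that of Ifih1 was -1.25. Rtp4 differed by -0.84 in the same comparison over all arrays. Ifi44 was well above background on 1 lung and 1 small intestine array and was not tested.

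**Figure D4:**
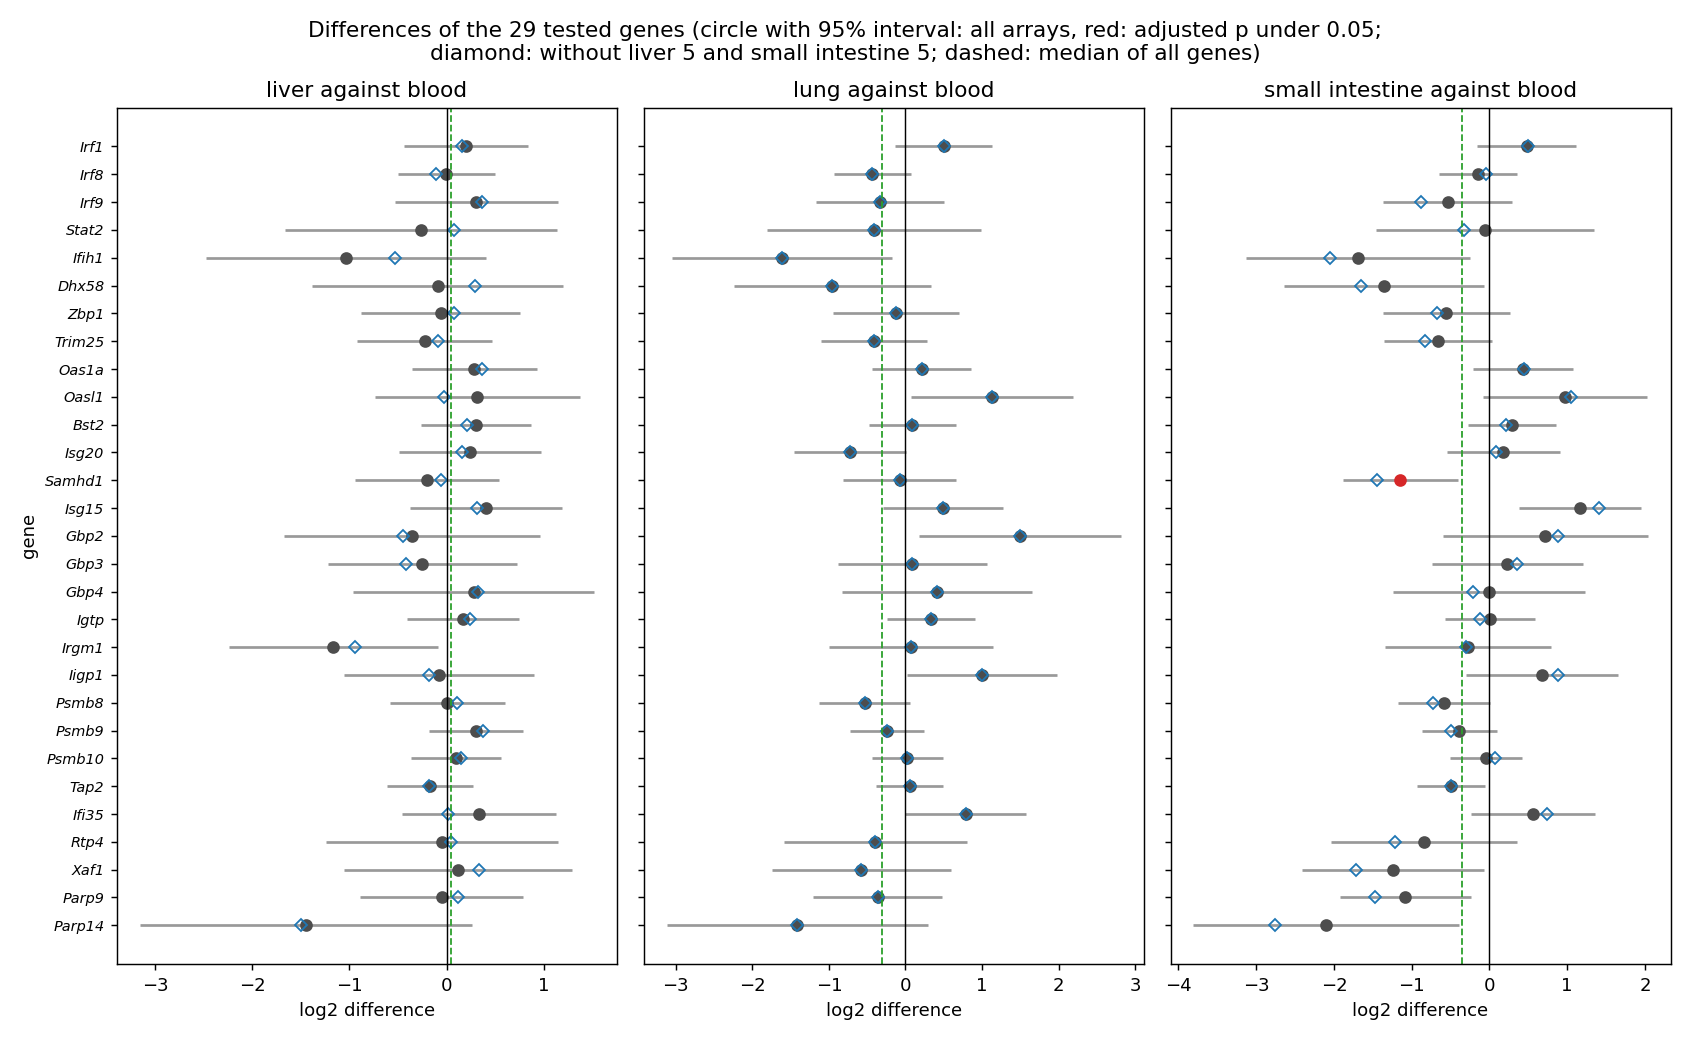
Log2 differences from blood of the 29 tested genes in liver, lung and small intestine, as circles with 95% intervals over all arrays, with red for the 1 gene past the threshold (Samhd1), diamonds for values without liver 5 and small intestine 5, and a dashed line at the median of all genes, which is 0.05, -0.30 and -0.36. Intervals of most genes span 0, and the diamonds of Parp14 and Ifih1 in small intestine lie further from 0 than the circles.

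When liver 5 and small intestine 5, as labelled, were left out, 7 of the 29 genes passed in small intestine against blood, beside 26.3% of all genes (21.6% lower, 4.72% higher). Isg15 was higher, and Ifih1, Dhx58, Samhd1, Xaf1, Parp9 and Parp14 were lower. In small intestine against liver 6 passed, all lower, beside 14.6% of all genes in that direction, and they were Irf9, Dhx58, Samhd1, Psmb9, Xaf1 and Parp9. In small intestine against lung 1 passed, Samhd1, beside 2.63% of all genes. In liver against blood and lung against blood 0 passed, beside 0% and 2.17%. The F-test over the sites then called 3 (18.8% of all genes), namely Samhd1, Xaf1 and Parp9. Dhx58 and Xaf1 entered the test only through blood and liver, and Parp14 only through blood, liver and lung. All of them averaged higher there than in small intestine, so their calls are a description.

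The interferons themselves were mostly not measurable. Of 18 listed genes 15 had a probe and 2 were tested, 0 of them called with all arrays and 1, Ifna11, called higher in small intestine than in blood without the 2 arrays, beside the 4.72% of all genes given above. Ifng, which encodes interferon-γ, was well above background on all 20 arrays. Ifng read 3.97, 5.19, 4.57, 2.57 and 3.39 on blood 1 to 5 and 4.17, 4.36, 4.28, 4.50 and 4.46 on liver 1 to 5. It read 5.43, 5.62, 4.82, 3.48 and 4.15 on lung 1 to 5 and 4.86, 4.39, 5.71, 2.49 and 4.18 on small intestine 1 to 5. The sites overlapped, and its differences from blood were 0.42 ± 0.53 (liver), 0.76 ± 0.53 (lung) and 0.39 ± 0.53 (small intestine; SE, adjusted p = 0.997, 0.280 and 0.565). The liver and small intestine values were 0.39 and 0.42 without the 2 arrays (adjusted p = 1.00 and 0.558). Ifnb1, the type I interferon made first in infection, was well above background on 2 arrays, small intestine 1 at 0.13 and small intestine 2 at 0.94. The other tested gene, Ifna11, differed by 0.63 ± 0.28 in small intestine (adjusted p = 0.125) and by 0.85 ± 0.27 without the 2 arrays (adjusted p = 0.0283), and its probe may share signal with other members of that family.

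Of the receptors and signalling proteins 12 of 18 were tested. In small intestine against blood 2 were called, both lower (9.94% of all genes), and 0 in the other comparisons. With those 2 arrays left out, 4 were called lower there and 4 in small intestine against liver (21.6% and 14.6% of all genes), with 1 lower in small intestine against lung and 1 in lung against blood (1.92% and 1.18%). Ifnar1, a chain of the type I receptor, averaged 0.99 ± 0.36 (blood), 0.74 ± 0.53 (liver), 0.51 ± 0.52 (lung) and 0.93 ± 1.11 (small intestine; SD, n = 5). Ifngr1, a chain of the interferon-γ receptor, averaged 6.13 ± 0.34, 6.55 ± 0.61, 5.97 ± 0.34 and 6.35 ± 0.66 in that order. Socs1, a feedback inhibitor of the pathway, averaged 1.62 ± 0.62, 2.57 ± 0.60, 2.27 ± 0.71 and 1.61 ± 0.82 in the same order, and liver minus blood was 0.95 ± 0.42 (SE, adjusted p = 0.997), and 0.99 ± 0.43 without the 2 arrays (adjusted p = 1.00). The 2 genes that fell in small intestine were Irf3, by 1.00 ± 0.30 (SE, adjusted p = 0.0412), which switches on type I interferon genes, and Irf4, by 2.31 ± 0.67 (adjusted p = 0.0367), a factor that T cell receptor signals raise. Irf4 was well above background on 2 of 5 small intestine arrays and on every blood array, so its lowest values lie in the background. It entered the test through blood, liver and lung and not through small intestine, so its call is a description. Irf3 differed by -1.11 (adjusted p = 0.0109) and Irf4 by -2.95 (adjusted p = 0.00234) without the 2 arrays.

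Of the proteins that induce type I interferon 4 of 13 were tested, and in small intestine against blood 2 fell (9.94% of all genes), with 0 called in the other comparisons. Without the 2 arrays 3 were called lower there and 3 in small intestine against liver (21.6% and 14.6% of all genes). Mavs, the adaptor of the RNA sensors, fell by 0.98 ± 0.28 (SE, adjusted p = 0.0350), and Myd88, the adaptor of most Toll-like receptors, fell by 1.32 ± 0.27 (adjusted p = 0.0169). Without the 2 arrays the values were -1.21 (adjusted p = 0.00422) and -1.51 (adjusted p = 0.000619). The highest T cell identity means under that label were on small intestine 3 and the array labelled small intestine 5. There Mavs read 0.27 and 1.11 and Myd88 0.01 and 0.91, against 0.72 to 1.69 and 1.07 to 1.90 in blood. The latter array went against its label in Paneth markers, and the part of the T cell share in these differences was not tested.

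Of 68 further interferon-stimulated genes 63 had a probe and 46 were tested. In small intestine against blood 2 were called higher and 2 lower (0.918% and 9.94% of all genes), in lung against blood 1 was called higher (0.521% of all genes), and 0 in the other 4 comparisons. When liver 5 and small intestine 5 were left out, 4 were called higher and 9 lower in small intestine against blood (4.72% and 21.6% of all genes), 9 lower in small intestine against liver (14.6%), 4 lower in small intestine against lung (1.92%) and 1 higher in lung against blood (0.993%). Cxcl10, a chemokine that draws CXCR3-bearing T cells, rose in small intestine. Cxcl10 read -1.40, 0.06, -1.90, -3.38 and -1.69 on blood 1 to 5 and 2.04, 2.59, -0.15, 0.66 and 2.77 on liver 1 to 5. It read 1.92, 2.81, -1.14, -0.52 and 1.04 on lung 1 to 5 and 3.75, 4.02, 1.36, 1.52 and 1.56 on small intestine 1 to 5. It was well above background on 1 blood array and on 5 small intestine arrays. Their values all lay above the blood range, as for 0.496% of all genes. Small intestine minus blood was 4.11 ± 0.79 (SE, adjusted p = 0.0157) and 4.33 without the 2 arrays (adjusted p = 0.00241). With 4 of 5 blood arrays in the background, the size of this difference is uncertain. Cxcl10 entered the test through liver and small intestine, where it averaged higher than in blood, so its call is a description. Small intestine 3 and the array labelled small intestine 5, where monocyte and macrophage markers averaged -0.35 and -1.73, read 1.36 and 1.56. The latter array went against its label in Paneth markers. The part of monocytes and macrophages in the Cxcl10 difference was not tested. Cxcl9, a related chemokine, was well above background on 3 of 20 arrays, lung 5, small intestine 1 and small intestine 2.

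Cd274, which encodes PD-L1, rose in small intestine as well. Cd274 read -0.08, -0.53, -0.92, -0.57 and -0.72 on blood 1 to 5 and 0.03, -0.56, -0.38, -0.30 and 0.12 on liver 1 to 5. It read -0.38, 0.55, -0.17, 0.50 and 0.17 on lung 1 to 5 and 0.64, 0.46, 0.02, 0.46 and -0.37 on small intestine 1 to 5. The difference from blood was 0.81 ± 0.25 (SE, adjusted p = 0.0448), and 0.96 without the 2 arrays (adjusted p = 0.0109). Cd274 was well above background on 3 blood, 4 liver, 4 lung and 5 small intestine arrays. It thus entered the test through the organs, where it averaged higher, and not through blood, so its call is a description. Trim21, an antibody receptor inside cells, fell by 2.76 ± 0.53 (adjusted p = 0.0154), and Pml, which organises nuclear bodies, fell by 2.11 ± 0.44 (adjusted p = 0.0169). Trim21 was well above background on 1 small intestine array, labelled 5, so the size of its difference over all arrays is uncertain. Without the 2 arrays it was at least 3.30-fold lower than in blood (adjusted p = 9.81e-06). Trim21 entered the test through blood, liver and lung, where it averaged higher than in small intestine, so its calls are a description. Pml differed by -2.54 without the 2 arrays (adjusted p = 7.47e-05). Pml read 3.51 to 4.07 in blood and 1.86, 1.35, 1.83, -0.04 and 3.41 on small intestine 1 to 5, so all 5 lay below every blood array, as for 7.82% of all genes. Tlr2, a receptor of bacterial lipoproteins found on myeloid cells, read highest in lung. It was well above background on 4 lung arrays and on 0 arrays of the other sites, so it entered the test through the site where it is high, and its call is a description. It was at least 2.01-fold higher in lung than in blood (adjusted p = 0.0264). On lung 3, its lowest lung array at -2.26, the alveolar macrophage markers averaged -2.17, and their part in the difference was not tested.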

How the data were processed

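RNA from 20 samples was amplified in 2 rounds, and each Cy3-labelled product was read on a 1-colour Agilent array. Scanning produced intensity values, which per the file headers were extracted with Feature Extraction 11.0.1.1, while the submitters' processing notes give 10.7, and Partek as a further tool. The authors' deposited value table holds log2 values that match a quantile normalization of these signals, with a median absolute difference of 1.08e-04. The genome build behind the array design is not given in the sources used here. From the deposited processed intensity, log2 values were taken relative to the 75th percentile of each array. Control spots and 24 non-uniform outliers were left out, and 5512 genes with several probes were read through the brightest. The test was limma 3.58.1 in R 4.3.3 over all 4 sites, with 16 residual degrees of freedom before moderation, Benjamini-Hochberg adjustment over 8057 genes and a threshold of 0.05, after a check on simulated data. The number of arrays limits the precision.

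Genes named with every value were those called in any comparison and, in each role group, the 2 with the smallest F-test p and the one with the highest mean level. Pathway genes were named where called, at most 4 per list, beside 9 fixed ones, of which 1 is not reported here. The 43 genes, the lists and the tests were chosen with earlier results of these data known. Replicate numbers match slides 1 to 5 per the file headers. Deviations from the site means correlated above 0.1 for 18 of 30 same-numbered pairs (-0.37 to 0.56). The labels do not link arrays to animals, so the numbers were not taken to pair samples, and the slide is an alternative block. With that block the Samhd1 call was lost. Normexp was run on median signals, chosen after seeing the data, in place of the planned mean signals. Other alternatives were scaling, quantile normalization, the filter, the choice of probe, a pairwise fit, the deposited table and leaving out arrays.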

Additional observations from a re-analysis of the deposited data

Results flagged for a closer look

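Irf9 on lung 5 stood apart from the other lung arrays. It read 2.97 there and 2.24 on the nearest of the other 4, and this gap was 0.731 of the whole range of the 5 arrays, above the critical value of 0.71. It was the only such value among 80 groups of 5 arrays that were examined, where chance gives about 1 in 20. Lung 5 lay inside the range of Irf9 in blood and in liver.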

How the results depend on the processing

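The count of members called in small intestine against blood (1) became 0 with arrays scaled to probes detected on all 20, with normexp, with no filter, with the mean of probes, with the slide as a replicate block and in the pairwise fit. It became 2 with the filter on all 20 arrays, 7 without liver 5 and small intestine 5, 6 without them with the replicate block, and 7 without them with that scaling. Quantile normalization and the deposited table called 1, Isg15 in place of Samhd1. Without the 2 arrays, small intestine against liver gave 6 (7 with the block, 4 with the scaling), small intestine against lung 1 (1 with the scaling), and the F-test 3 (5 and 4). Leaving out each array in turn gave 0 to 6 for small intestine against blood, 0 to 2 for lung against liver (without lung 3, Gbp2 and Irgm1), 0 to 5 for small intestine against liver, 0 to 1 for small intestine against lung, 0 to 2 in the F-test and 0 for liver or lung against blood. The highest counts came without small intestine 5, except for lung against liver. The count for small intestine against blood was 2 without liver 5 or lung 4 and 4 without small intestine 3, and 0 without any of 14 arrays. Psmb10 in small intestine against liver, -0.14, turned to 0.21 with the scaling, 0.31 with the scaling and without the 2 arrays, 0.035 with quantile normalization and 0.035 with the deposited table. The cause was not tested. Samhd1 kept its direction under its alternatives, from -1.44 to -0.80 with adjusted p between 0.00519 and 0.127, the mean of its probes among them, and its second probe alone gave -0.45. With 5 arrays a site and 12 genes near background, small differences were not detectable. The replicate block changed no other call than those given.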
